A study of Mus musculus with 18 samples.

Results

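The 10 genes described here are transcription factors grouped under the identity of the retinal pigment epithelium (RPE), with eye field and optic cup factors among them: Mitf, Otx2, Tfec, Sox9, Lhx2, Pax6, Six3, Tbx2, Tbx3 and Vax2. They were chosen by symbol, and all 10 were found among the 21859 rows of a table of read counts per gene. The table holds 18 bulk RNA-seq libraries of mouse RPE in 4 groups. Young (7 libraries) and Old (4 libraries) were RPE of young and of aged mice for which the labels name no vector. Old-Control (3 libraries) was RPE of aged mice given AAV2-tTA, an adeno-associated virus vector that carries the tetracycline-controlled transactivator tTA. Old-OSK (4 libraries) was RPE of aged mice given AAV2-tTA;TRE-OSK, in which the tTA-responsive promoter TRE drives OSK, the factors Oct4 (gene Pou5f1), Sox2 and Klf4. The 2 vector groups share tTA. Strain, ages in months, dose, time after injection and the promoter that drives tTA are not given in the sources used here, nor is whether each library came from a separate animal. P-values therefore measure the spread between these libraries only, which may be partly technical.

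The RPE is the pigmented cell layer behind the photoreceptors, and it arises from the same optic neuroepithelium as the neural retina. Mitf, a basic helix-loop-helix leucine zipper factor, turns on melanin and melanosome genes, and Otx2, a homeodomain factor, acts with it in the embryo. In the mature RPE, Otx2, Sox9 and Lhx2 are known activators of visual cycle genes, which recycle the chromophore of the photoreceptors. Pax6 and Six3 mark the early eye field, and Tbx2, Tbx3 and Vax2 pattern the dorsal and ventral optic cup. Several of the 10 are not private to the RPE: Otx2 is also made in photoreceptors and bipolar cells, Sox9 and Lhx2 in Müller glia, Pax6 in amacrine and ganglion cells, and Mitf in melanocytes.

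Library totals lay between 18104828 and 32348136 counts, and RPE genes stood high in every library, with a summed level of 10 RPE markers between 26510 and 93380 CPM (read counts scaled to library size with edgeR's TMM factors). The label RPE therefore held, although Best1, a chloride channel gene of the RPE, averaged only 1.21 to 1.91 CPM in the 4 groups. Old replicate 4 and Old-Control replicate 2 scored 73.2 and 61.8 on the first principal component of all genes (46.46% of the variance), inside the range of the 4 Old-OSK libraries (45.7 to 96). The 10 rod markers summed to 19380 CPM in Old-Control replicate 2 and 16310 CPM in Old-OSK replicate 4, against 155.8 to 8014 CPM elsewhere. No marker of the 12 cell type lists was at 0 in all libraries of a group. Sox2, a gene of the vector, averaged 93.19 CPM with OSK, beside 7.78 CPM with the control vector. The library names of Young replicates 5, 6 and 7, Old-Control replicates 2 and 3 and Old-OSK replicate 4 carry a letter M that the labels do not explain, and these 6 libraries had 4040 to 5493 counts on 4 Y-linked genes, against at most 93 in the others.

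Promoter windows in the RefSeq table (build GRCm38.p6, 250 bases before to 50 after a transcription start) were matched for 6 of the 10 genes, 13 windows in all. The others are Sox9, Tbx2, Tbx3 and Vax2. The windows below belong to the 5 matched genes whose levels the results turn on, and for Mitf the most upstream and the most downstream start are both shown because the start used sets the isoform. Capitals mark the letters searched on both strands: TAATCC (Otx-type homeodomain core), TAATTA (LIM-homeodomain core), CACGTG and CATGTG (MiT E-box and M-box core), ACAATG (Sox core), ATGCAAAT (octamer), CACCC (Klf-type) and TGACGTCA (cyclic AMP response element). For Otx2, Lhx2 and Pax6 the most upstream start is shown. In Otx2 the window is at chr14:48667595-48667894, minus strand. For Mitf the windows are at chr6:97806808-97807107 and chr6:97991533-97991832, plus strand. Those of Lhx2 (chr2:38339031-38339330), Six3 (chr17:85620584-85620883) and Pax6 (chr2:105668646-105668945) are on the plus strand.
Otx2: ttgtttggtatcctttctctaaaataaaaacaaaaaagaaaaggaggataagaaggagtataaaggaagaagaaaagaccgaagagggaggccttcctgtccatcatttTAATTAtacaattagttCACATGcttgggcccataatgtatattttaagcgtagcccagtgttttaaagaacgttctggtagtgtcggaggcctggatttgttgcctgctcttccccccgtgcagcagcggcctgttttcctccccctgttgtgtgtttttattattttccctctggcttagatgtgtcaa
Mitf, most upstream start: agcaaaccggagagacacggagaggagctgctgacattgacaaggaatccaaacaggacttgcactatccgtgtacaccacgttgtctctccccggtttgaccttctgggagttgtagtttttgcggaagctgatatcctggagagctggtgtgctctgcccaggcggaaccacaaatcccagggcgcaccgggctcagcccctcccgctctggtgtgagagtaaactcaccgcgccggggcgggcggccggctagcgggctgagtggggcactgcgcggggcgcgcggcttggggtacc
Mitf, most downstream start: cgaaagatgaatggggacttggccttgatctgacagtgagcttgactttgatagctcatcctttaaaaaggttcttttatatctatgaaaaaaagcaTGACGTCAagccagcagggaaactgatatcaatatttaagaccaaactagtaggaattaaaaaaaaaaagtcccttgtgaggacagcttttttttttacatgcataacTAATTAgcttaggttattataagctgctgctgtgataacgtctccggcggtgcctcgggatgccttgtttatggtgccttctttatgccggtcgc
Lhx2: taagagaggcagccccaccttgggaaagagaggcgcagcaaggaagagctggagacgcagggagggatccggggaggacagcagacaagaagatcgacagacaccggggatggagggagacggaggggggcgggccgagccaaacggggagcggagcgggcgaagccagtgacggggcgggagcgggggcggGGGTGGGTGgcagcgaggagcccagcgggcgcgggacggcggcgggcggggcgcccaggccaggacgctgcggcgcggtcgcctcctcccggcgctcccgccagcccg
Six3: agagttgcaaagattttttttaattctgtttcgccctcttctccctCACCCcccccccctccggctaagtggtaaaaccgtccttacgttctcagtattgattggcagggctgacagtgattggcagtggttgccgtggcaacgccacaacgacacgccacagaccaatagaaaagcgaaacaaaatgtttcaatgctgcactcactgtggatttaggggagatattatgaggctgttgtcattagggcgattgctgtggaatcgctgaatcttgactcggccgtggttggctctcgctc
Pax6: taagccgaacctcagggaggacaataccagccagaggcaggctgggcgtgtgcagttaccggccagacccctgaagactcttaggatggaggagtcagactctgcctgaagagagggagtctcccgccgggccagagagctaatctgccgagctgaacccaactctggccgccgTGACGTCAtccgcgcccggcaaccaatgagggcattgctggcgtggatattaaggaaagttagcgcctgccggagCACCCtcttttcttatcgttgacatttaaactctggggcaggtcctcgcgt

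These windows differ from each other in composition. The Lhx2 window is 74.7% G and C, the most upstream Mitf window 62.7%, the Pax6 window 58.7%, the Six3 window 50%, and the Otx2 and most downstream Mitf windows 41.7% and 40%, against a median of 52.7% over all 32851 windows in the table. TAATTA is in the Otx2 window (141 bases before the start) and in the most downstream Mitf window (45 bases before it), and 5.29% of all windows hold it. CACATG, the M-box core read on the other strand, is in the Otx2 window 124 bases before the start (14.2% of all windows). TGACGTCA is in the most downstream Mitf window and in the Pax6 window (1.79% of all windows). CACCC or its reverse complement GGGTG is in the Lhx2, Six3 and Pax6 windows, and in 57.5% of all windows. Otx2 and Mitf windows that are not shown also hold CACCC or GGGTG, and GGATTA, the Otx-type core read on the other strand (7.06% of all windows). An Otx2 window that is not shown holds TAATTA 3 times. The 2 GGGTG matches of the Lhx2 window share their outer G. Among the 13 windows none holds the octamer ATGCAAAT (1.74% of all) or CACGTG (7.15% of all). A match is a run of letters and was not tested as a binding site.

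Per kilobase of exon (union of the exons of the GENCODE M21 annotation, build GRCm38), Otx2 had the highest level in Young, 180 ± 32.7 CPM per kilobase (SD, n = 7). Sox9 followed with 47.7 ± 9.13. Lhx2 (30.2 ± 2.42) and Six3 (30.1 ± 4.9) did not differ beyond their spread, and neither did Mitf (18.6 ± 1.59), Tbx2 (17.8 ± 2.8) and Pax6 (17.3 ± 10.6). The exon union covers all annotated transcripts, so the order between genes depends on the annotation. It held 11694 bases over 26 transcripts for Pax6, and 3626 bases and 1 transcript for Tbx2. Vax2 stood at 2.8 ± 0.463, and Tbx3 (0.155 ± 0.0624) and Tfec (0.0544 ± 0.0572) were lowest, with overlapping spreads. In Old-OSK the order was Otx2 (82.1 ± 14.7, n = 4), Sox9 (31.4 ± 3.72), Pax6 (27.4 ± 6.99), Six3 (17.1 ± 3.71), Lhx2 (16.5 ± 1.98), Tbx2 (12.3 ± 1.85), Mitf (11.2 ± 0.931), Vax2 (7.52 ± 5.26), Tbx3 (0.276 ± 0.168) and Tfec (0.11 ± 0.0448). The spreads of neighbours in that order overlap except between Otx2 and Sox9, Lhx2 and Tbx2, and Vax2 and Tbx3. All 10 passed the filter on low counts, but Tfec reached 10 counts in only 9 of 18 libraries (0 to 32 counts), and Tbx3 had 11 to 105 counts.

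**Figure D1:**
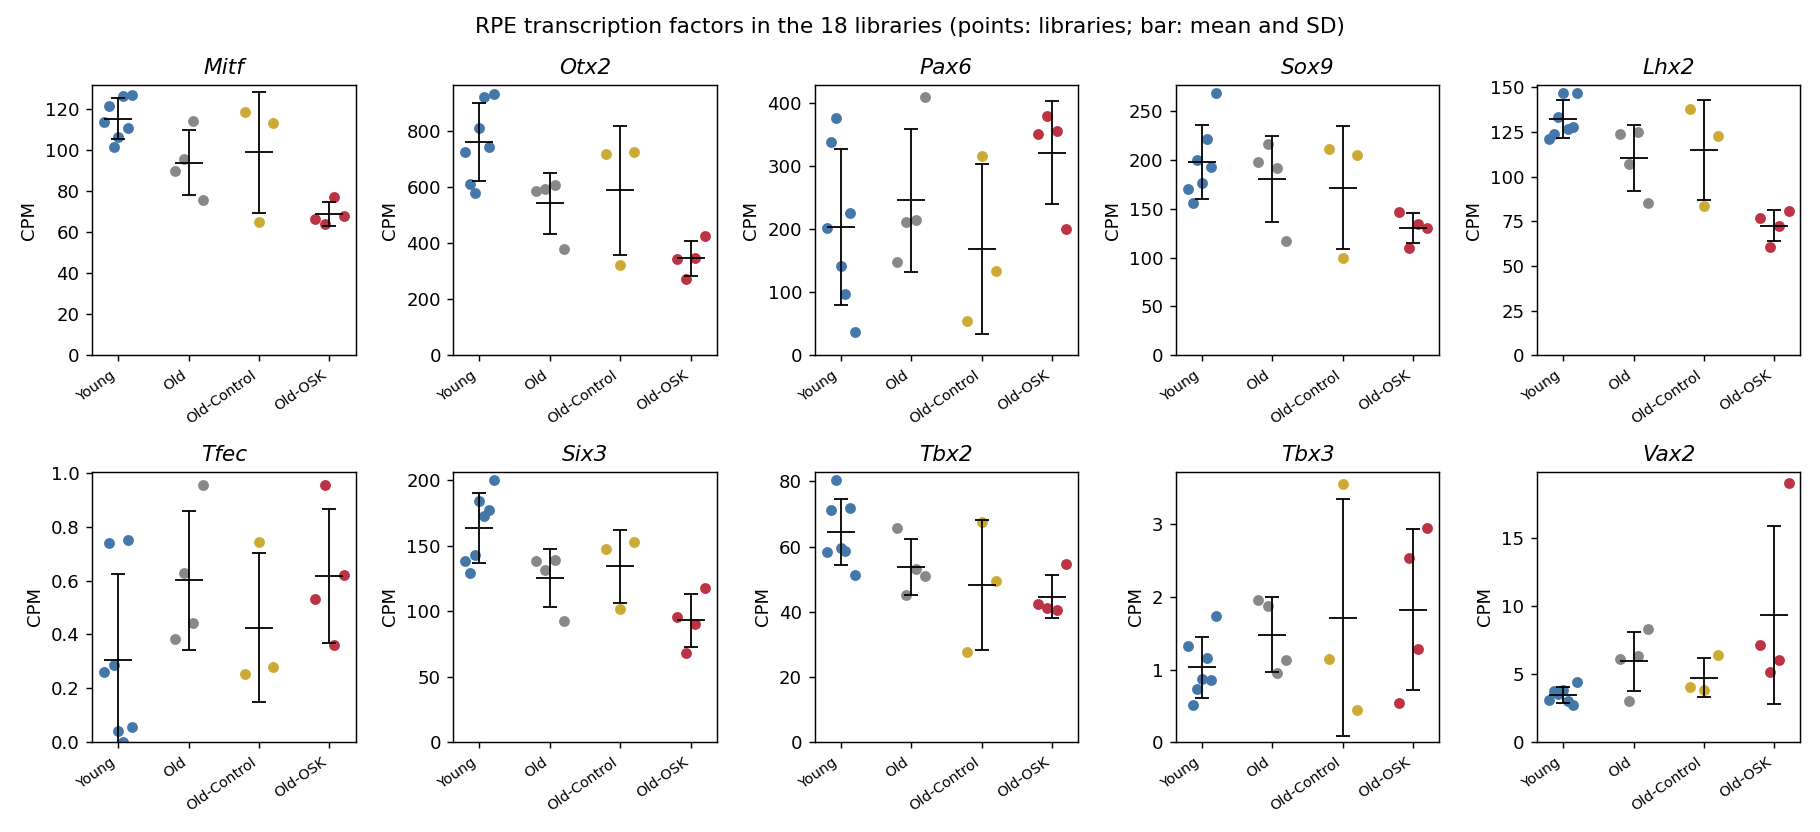
Level of each of the 10 genes (y axis, CPM, starting at 0) in the 18 libraries by group, each point a library and the bars the group mean and SD. The 4 Old-OSK libraries lie low for Otx2, Mitf, Lhx2 and Six3, and Old replicate 4 and Old-Control replicate 2 lie near them, while Pax6 is scattered over a wide range in Young (36.8 to 377 CPM).

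Otx2 lies on chromosome 14 (48657677 to 48673819, minus strand) and had 6555 to 22380 counts per library. In Young its level ran from 579 to 931 CPM with a median of 743. In Old it was 587, 592, 608 and 380 CPM, and in Old-Control 716, 322 and 725 CPM. Old-OSK had 342, 272, 346 and 425 CPM. All Old-OSK libraries were thus below all Young libraries, and Old replicate 4 and Old-Control replicate 2 were the only other libraries in their range. The 2 low libraries make the Old and Old-Control groups overlap with Old-OSK. The transcripts Otx2os1 (opposite strand) and Gm49154 (same strand) share 3.65% and 3.98% of the exonic bases of Otx2. Neither has a row in the table, and the library kit does not mark strand.

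Mitf (chromosome 6, 97807052 to 98021349, plus strand, 8 annotated transcripts) followed a like pattern at a lower level. It ran from 102 to 127 CPM in Young with a median of 114. Old had 90.1, 95.6, 114 and 75.9 CPM, and Old-Control 119, 64.9 and 113 CPM. Old-OSK had 66.8, 64.2, 77.4 and 68 CPM, below every Young library. The lowest Old and Old-Control libraries were again Old replicate 4 and Old-Control replicate 2. Counts per gene add up all Mitf isoforms, so the RPE-enriched and the melanocyte isoform cannot be told apart. Tfec, the relative of Mitf in the same MiT family, stayed between 0 and 0.956 CPM in every library, near the limit of detection.

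Lhx2 (chromosome 2, 38339281 to 38369733, plus strand), a LIM-homeodomain factor needed for the optic vesicle, was the steadiest of the 10 in Young, from 121 to 147 CPM with a median of 128. Old had 124, 107, 125 and 85.6 CPM, and Old-Control 138, 83.6 and 123 CPM. Old-OSK had 77.2, 60.7, 72.3 and 80.6 CPM. Every Old-OSK library was below every library of the other 3 groups, narrowly so for Old-OSK replicate 4 (80.6 CPM) and Old-Control replicate 2 (83.6 CPM). Sox9 (chromosome 11, 112782224 to 112787760, plus strand), an HMG-box factor, ran from 155 to 268 CPM in Young with a median of 192. It was 197, 216, 191 and 117 CPM in Old and 210, 99.6 and 205 CPM in Old-Control. Old-OSK had 146, 109, 134 and 130 CPM, below all of Young, and overlapping with Old and with Old-Control.

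Six3 (chromosome 17, 85613608 to 85629302, plus strand), a homeodomain repressor of the eye field and forebrain, ran from 130 to 200 CPM in Young with a median of 173. Old had 138, 131, 140 and 92.4 CPM, and Old-Control 148, 102 and 153 CPM. Old-OSK had 95.9, 68.4, 90.1 and 118 CPM, all below Young. The antisense transcripts Six3os1 and Gm28528 share 1.95% and 3.08% of its exonic bases. Pax6 (chromosome 2, 105668900 to 105697364, plus strand), the paired-box factor of the eye field, went the other way. It ran from 36.8 to 377 CPM in Young with a median of 202, and was 149, 211, 215 and 409 CPM in Old. Old-Control had 54.7, 316 and 134 CPM, and Old-OSK 350, 379, 355 and 200 CPM. Old replicate 4 and Old-Control replicate 2, low in Otx2, had the highest Pax6 of their groups, and all groups overlapped.

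Tbx2 (chromosome 11, 85832551 to 85841948, plus strand), a T-box repressor of the dorsal optic cup, ran from 51.3 to 80.3 CPM in Young with a median of 59.7. Old had 65.7, 45, 53.2 and 51 CPM, Old-Control 27.8, 67.5 and 49.4 CPM, and Old-OSK 42.4, 41.1, 40.6 and 54.6 CPM. Here Old-Control replicate 2 was the highest of its group, unlike in Otx2. Vax2 (chromosome 6, 83711264 to 83738313, plus strand), the homeodomain factor of the ventral optic cup, ran from 2.7 to 4.39 CPM in Young with a median of 3.55. Old had 6.08, 3.03, 6.33 and 8.31 CPM, Old-Control 4.03, 3.82 and 6.39 CPM, and Old-OSK 7.12, 5.15, 6.02 and 19.1 CPM. Every Old-OSK library was above every Young library, and Old-OSK replicate 4 stood far above the rest. Tbx3 (chromosome 5, 119670669 to 119684724, plus strand), a close relative of Tbx2, stayed between 0.437 and 3.55 CPM, and all groups overlapped. Its mean was 1.028 ± 0.4136 CPM in Young, 1.482 ± 0.5161 CPM in Old, 1.711 ± 1.633 CPM in Old-Control and 1.825 ± 1.114 CPM in Old-OSK (SD).

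Aged RPE was first compared with young RPE without a vector. None of the 10 genes passed the test over all genes (edgeR's quasi-likelihood test, Benjamini-Hochberg adjusted p under 0.05), while 9.56% of the 15944 genes tested did (5.4% higher and 4.16% lower). Otx2 averaged 541.7 ± 108.2 CPM in Old (SD, n = 4) and 759.8 ± 138 CPM in Young (n = 7), a log2 fold change of -0.49 (SE 0.21, adjusted p = 0.141). Six3 had -0.38 (SE 0.17, adjusted p = 0.138), and Mitf and Lhx2 had -0.3 (SE 0.14, adjusted p = 0.174) and -0.26 (SE 0.13, adjusted p = 0.195). Vax2 had 0.78 (SE 0.32, adjusted p = 0.124). At an unadjusted p under 0.05 there were 3 of the 10 (Vax2, Six3 and Otx2), against 29% of all genes, and Old overlapped Young for each of the 10, while 3.69% of all genes were higher and 5.61% lower without overlap. Without Old replicate 4, the log2 fold change of Otx2 was -0.35 (adjusted p = 0.433). Young replicates 5, 6 and 7 carry the M and no Old library does, so age and M are partly confounded. With M as a covariate none of the 10 was called, beside 3.76% of all genes. With Old-Control replicate 2 and Old-OSK replicate 4 left out of the shared fit, Vax2 was called (adjusted p = 0.0332), and 16.9% of all genes with it.

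Candidate targets of these factors were read from lists chosen for this report. The pigment list holds 16 genes that Mitf is known to drive, mostly pigment and melanosome genes, with others such as Cdk2, Bcl2 and Met. Of these 16, 5 were lower in Old and 0 higher (Tyr, Tyrp1, Pmel, Slc24a5 and Cdk2), with a list median of -0.49 against 0 over all genes. Tyr, which encodes tyrosinase, the rate-limiting enzyme of melanin synthesis, averaged 329.9 ± 42.58 CPM in Old beside 597.8 ± 39.32 CPM in the Young libraries and fell by 0.86 on the log2 scale (SE 0.13, adjusted p = 0.00131), and Cdk2, a cell cycle kinase gene, fell by 0.95 on the log2 scale (adjusted p = 0.00438). Pmel, the melanosome fibril protein, fell by 1.23 (adjusted p = 0.0229), and Slc24a5, a melanosomal exchanger, by 0.56 (adjusted p = 0.0364). None of 15 visual cycle and other RPE genes, listed as candidate targets of Otx2, Sox9 and Lhx2, was called in this comparison (median -0.33). Of the 15, 12 had a negative log2 fold change. The lowest p belonged to 2 on the high side, Cdh1, the epithelial cadherin (1.94, SE 0.66, adjusted p = 0.0666), and Slc16a3, a lactate transporter (0.98, SE 0.41, adjusted p = 0.126). Slc16a3 averaged only 6.864 CPM in Old and 3.453 CPM in Young. Whether each listed gene is a target of these factors was not tested. The 8 melanocyte markers, which share Dct, Mlana and Gpnmb with the pigment list, summed to 3563 to 7002 CPM in Young and 3457 to 4576 CPM in Old, and their part in the pigment difference was not tested. In bulk libraries fewer cells of a type and less RNA per cell cannot be told apart.

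Among 20 cofactors and upstream regulators of RPE fate, 1 was lower in Old, the Wnt target Axin2 (28.95 ± 3.765 against 39.72 ± 6.612 CPM, log2 fold change -0.46, adjusted p = 0.0463). Of 20 neural retina transcription factors, 18 were tested, with 1 higher and 0 lower and a median of 1.39. The called gene was Tfap2a, an amacrine cell factor (8.171 ± 3.806 against 2.112 ± 1.161 CPM, log2 fold change 1.94, SE 0.5, adjusted p = 0.0283). The summed amacrine and ganglion markers, which hold Tfap2a, did not rise with it, at 281.5 to 455.8 CPM in Old and 373.3 to 524 CPM in Young. Rod marker sums were 2122 to 7661 CPM in Old and 155.8 to 3073 CPM in Young, and their part in the median was not tested. Of 14 relatives of the 10 genes (MiT, Otx, Sox, T-box, Vax and other families), 13 were tested and 0 were called. The lowest p in that list belonged to Lhx9 (log2 fold change 2.46, SE 0.78, adjusted p = 0.054) and Crx, the photoreceptor relative of Otx2 (1.41, SE 0.74, adjusted p = 0.218). Lhx9 averaged only 0.6849 CPM in Old and 0.1203 CPM in Young.

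The second comparison, Old-OSK against Old-Control, sets the OSK vector beside the vector without OSK in aged RPE. None of the 10 was called, against 0.728% of all genes (116 genes). Otx2, Lhx2, Mitf, Six3 and Sox9 were all on the low side and Vax2 and Pax6 on the high side. Lhx2 came closest: its mean was 72.67 ± 8.685 CPM with OSK (n = 4) and 114.9 ± 28.1 CPM with the control vector (n = 3), which gives -0.66 on the log2 scale (SE 0.16, 95% interval -0.99 to -0.33, adjusted p = 0.0588). It was the only 1 of the 10 whose groups did not overlap (5.84% of all genes were lower and 6.55% higher without overlap). Otx2 averaged 346.4 ± 62.14 CPM against 587.8 ± 229.9 CPM (-0.76, SE 0.25, interval -1.3 to -0.23, adjusted p = 0.0965).

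Mitf had a log2 fold change of -0.52 (SE 0.17, adjusted p = 0.0924), Six3 -0.53 (SE 0.2, adjusted p = 0.121) and Sox9 -0.4 (SE 0.24, adjusted p = 0.316). Vax2 had 0.98 (SE 0.41, adjusted p = 0.146), and 0.33 without Old-OSK replicate 4 (adjusted p = 0.502). The estimate for Pax6 was 0.93 with a wide interval of -0.42 to 2.28 (SE 0.64, adjusted p = 0.382). Tbx2, Tbx3 and Tfec had -0.11 (SE 0.23), 0.1 (SE 0.62) and 0.52 (SE 0.85). The median over the 10 was -0.25, beside -0.03 over all genes, and 5 of the 10 had an unadjusted p under 0.05, beside 26.3% of all genes.

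Single libraries decided the count of called genes here. Without Old-Control replicate 2, the library that scored with Old-OSK on the first component, 5 of the 10 were called lower (Lhx2, Otx2, Mitf, Six3 and Sox9), and so were 17.9% of all genes in either direction. The log2 fold changes were then -0.87 for Lhx2 (adjusted p = 0.0047), -1.08 for Otx2 (adjusted p = 0.00726), -0.78 for Mitf (adjusted p = 0.0045), -0.72 for Six3 (adjusted p = 0.0351) and -0.7 for Sox9 (adjusted p = 0.0396). Without Old-OSK replicate 4, 3 were called lower (Lhx2, Otx2 and Six3), with 11% of all genes. Leaving out any other single library of the 2 groups called none of the 10. DESeq2 called Lhx2 and Otx2 (11.6% of all genes). The fit with the replicate number as a block held only the 2 vector groups and their shared replicate numbers, so it left out Old-OSK replicate 4. It called 461 genes in place of 116, and again none of the 10 (Lhx2 -0.69, adjusted p = 0.0562). The part of the block and that of the libraries left out cannot be told apart. Among the libraries without M, which leave 1 Old-Control library, Lhx2, Otx2 and Mitf were called lower and Pax6 higher, with 8.2% of all genes. That fit takes the lone control library to vary like the libraries of the other groups. The libraries with M hold a single Old-OSK library and gave no value of their own. Old-Control replicates 2 and 3 and Old-OSK replicate 4 carry the M, so OSK and M are partly confounded here too. With M as a covariate none of the 10 was called, beside 0.364% of all genes.

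**Figure D2:**
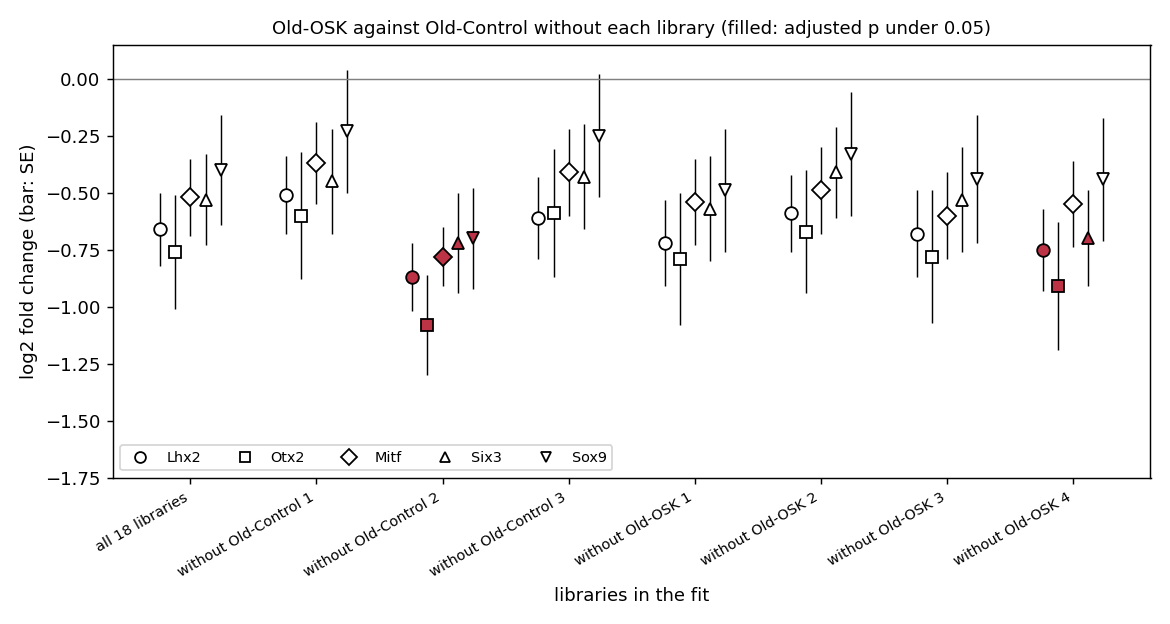
Log2 fold change of Lhx2, Otx2, Mitf, Six3 and Sox9 in Old-OSK against Old-Control (y axis, bars are standard errors) with all 18 libraries in the fit and without each of the 7 vector-treated libraries in turn (x axis). Every value is below 0, and filled symbols (adjusted p under 0.05) appear without Old-Control replicate 2 (5 genes) and without Old-OSK replicate 4 (3 genes).

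Visual cycle and RPE genes lay low with these factors. Of 15 genes, 13 had a negative log2 fold change with a median of -1.02, and 0 were called. An unadjusted p under 0.05 was found for 13, beside 26.3% of all genes, and among these Cdh1 was on the high side (2.19, SE 0.88, adjusted p = 0.136). Rrh, an opsin of the RPE, had a mean of 152.4 ± 34.82 CPM with OSK, beside 322 ± 179.6 CPM without (-1.08, SE 0.3, adjusted p = 0.0745), and Rpe65, the isomerase of the visual cycle, averaged 1733 ± 396.7 and 3666 ± 1579 CPM (-1.08, SE 0.31, adjusted p = 0.0789). Of the 16 genes of the pigment list 0 were called, and their median was 0.1. Slc24a5 and Tyr had -0.6 (SE 0.19, adjusted p = 0.085) and -0.45 (SE 0.15, adjusted p = 0.0981). The neural retina list had 1 called gene, Sox2 (3.58, SE 0.5, adjusted p = 0.00343), which the vector itself supplies. Among the cofactors, 0 were called, and Ppargc1a, a coactivator of mitochondrial genes (-0.57, SE 0.14, adjusted p = 0.0588), and Rarb, a retinoic acid receptor (-0.72, SE 0.17, adjusted p = 0.061), had the lowest p. In the list of relatives 0 were called, with the lowest p for Tbx15 (-1.26, adjusted p = 0.155) and Sox10 (-0.8, adjusted p = 0.171).

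The general RPE markers moved with the factors from library to library. The 10 RPE markers summed to 26510 to 44080 CPM in Old-OSK, 38340 CPM in Old replicate 4 and 29160 CPM in Old-Control replicate 2, and to 56390 to 93380 CPM in the other 12 libraries. Those are the same 6 libraries that were lowest in Otx2 (272 to 425 CPM, against 579 to 931 CPM in the other 12). With the RPE marker level as a covariate, the Old-OSK against Old-Control log2 fold change of Otx2 was -0.1 (adjusted p = 0.716) and that of Lhx2 -0.32 (adjusted p = 0.274). The marker list holds known targets of Otx2, Sox9 and Lhx2, so the covariate and the factors cannot be told apart in these libraries. Müller glia markers, of which Rlbp1 is also an RPE gene, summed to 10110 to 13070 CPM in Old-OSK and 11390 to 19140 CPM in Old-Control. Their part in the Sox9 and Lhx2 values was not tested. With the rod markers as a covariate, Lhx2 had -0.65 (adjusted p = 0.063).

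**Figure D3:**
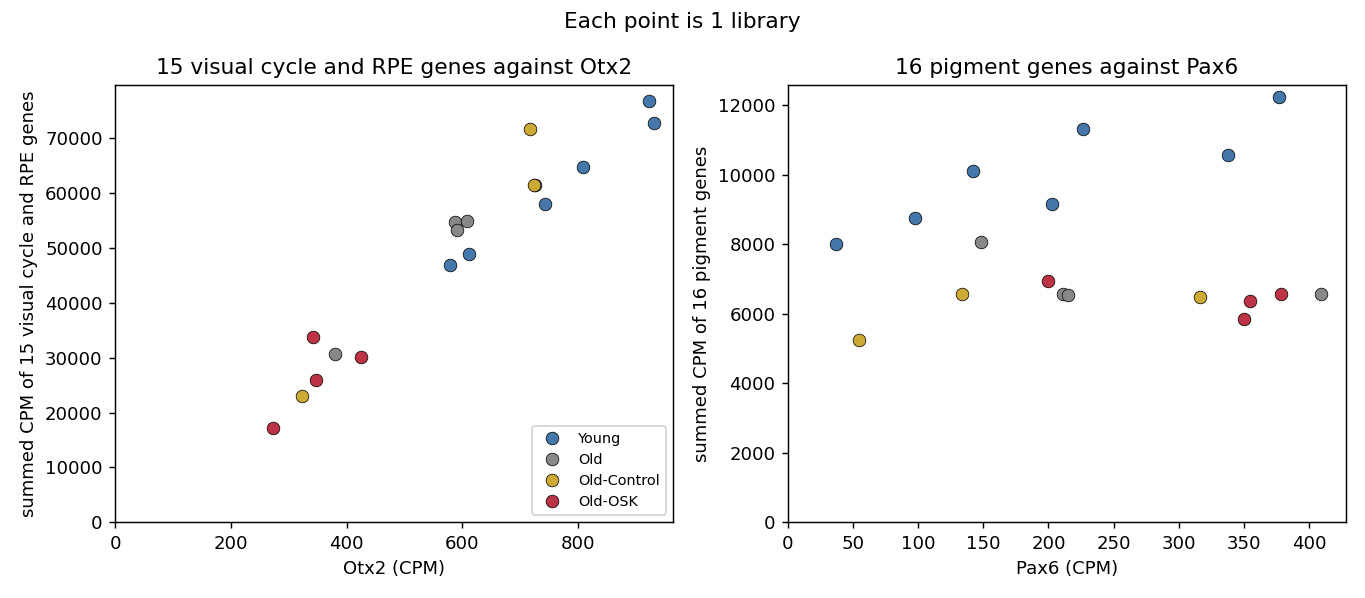
Left, summed CPM of the 15 visual cycle and RPE genes (y axis) against Otx2 (x axis, CPM), each point 1 library coloured by group, and right, summed CPM of the 16 genes of the pigment list against Pax6. The 6 libraries with the least Otx2 have list sums of 17260 to 33840 CPM and the other 12 have 46920 to 76760 CPM, while the pigment sums are 8008 to 12240 CPM in the 7 Young libraries and 5252 to 8071 CPM in the others.

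Old-Control against Old sets the vector without OSK beside no named vector in aged RPE. No Old library carries the M, while Old-Control replicates 2 and 3 do, so vector and M are partly confounded here. EdgeR's test called 0 of the 10 and 0% of all genes (DESeq2 also 0, and 596 genes had an unadjusted p under 0.05, 3.74%). None of the 10 was among those 596, and all 10 overlapped, while 2.25% of all genes were higher and 0.928% lower without overlap. The log2 fold changes of Mitf, Otx2, Lhx2, Six3, Sox9 and Tbx2 lay between -0.16 and 0.12, with standard errors of 0.16 to 0.26, and those of Pax6, Tfec, Tbx3 and Vax2 between -0.55 and 0.22 with standard errors of 0.4 to 0.85. At this spread, the 95% interval of Otx2 ran from -0.42 to 0.66 and that of Pax6 from -1.89 to 0.79. With M as a covariate Pax6 had -0.02, and among the libraries without M, which leave 1 Old-Control library, -2.17. Of the 5 lists, 0 genes were called. The lowest p belonged to Sox2 (log2 fold change 1.24) and Isl1 (1.51) among neural retina factors, Wwtr1 (-0.3) and Nr2f2 (-0.26) among cofactors, and Sox8 (1.52) and Tbx15 (0.83) among relatives. In the visual cycle and RPE list it belonged to Cdh1 (-1.61) and Slc16a3 (0.92), and in the pigment list to Cdk2 (-0.31) and Pmel (-0.54). Each of these 10 list genes, from Sox2 to Pmel, had an adjusted p of 0.9.

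Old-OSK was also set against Young and against Old, comparisons added after the data had been seen. They share the Old-OSK libraries with the comparison above, and Old-OSK against Young shares the Young libraries with Old against Young, so they are no independent evidence. Against Young, 7 of the 10 were called, beside 46.4% of all genes (53.4% had an unadjusted p under 0.05): 6 were lower, beside 21.4%, and Vax2 was higher, beside 25.1%. Otx2 fell by 1.13 on the log2 scale (SE 0.22, adjusted p = 0.000898), Lhx2 by 0.87 (SE 0.13, adjusted p = 0.000185), Six3 by 0.81 (SE 0.17, adjusted p = 0.00142) and Mitf by 0.74 (SE 0.14, adjusted p = 0.000897). Sox9 fell by 0.6 (SE 0.21, adjusted p = 0.0245) and Tbx2 by 0.53 (SE 0.19, adjusted p = 0.0299). Vax2 rose by 1.43 (SE 0.32, adjusted p = 0.00222), and by 0.78 without Old-OSK replicate 4 (adjusted p = 0.0213). All but Tbx2 were without overlap between the groups, 5 lower (15.6% of all genes were) and 1 higher (12.6%).

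The calls of Otx2, Lhx2, Six3, Mitf and Vax2 against Young held in all 11 fits that left out a library. Sox9 was lost without Old-OSK replicate 2 (adjusted p = 0.0848), and Tbx2 in 5 of the 11 (adjusted p up to 0.0907). With the rod markers as a covariate 5 of the 10 were called, beside 27% of all genes. With the RPE markers it was 3 (Lhx2 and Tbx2 lower, Vax2 higher), beside 9.87%, and among the libraries without M 5, beside 36%. With the immune markers as a covariate none was called, beside 0% of all genes. The immune sums (491.3 to 683.4 CPM in Young, 724.9 to 1214 CPM in the other groups) do not overlap between ages, so age and covariate cannot be told apart. Pax6 (0.66, SE 0.51, adjusted p = 0.302), Tbx3 (0.84, SE 0.5, adjusted p = 0.183) and Tfec (0.98, SE 0.69, adjusted p = 0.26) were not called. Against Old, none of the 10 was called, beside 0.84% of all genes (0.652% higher and 0.188% lower), and 4 had an unadjusted p under 0.05, beside 15.7%. Lhx2 had -0.6 (SE 0.15, adjusted p = 0.068) and was without overlap (4.45% of all genes were lower and 3.7% higher without overlap), and it was called without Old replicate 4 (-0.71, adjusted p = 0.0158). Otx2 had -0.65 (SE 0.24, adjusted p = 0.208) and Mitf -0.44 (SE 0.16, adjusted p = 0.189) against Old.

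**Figure D4:**
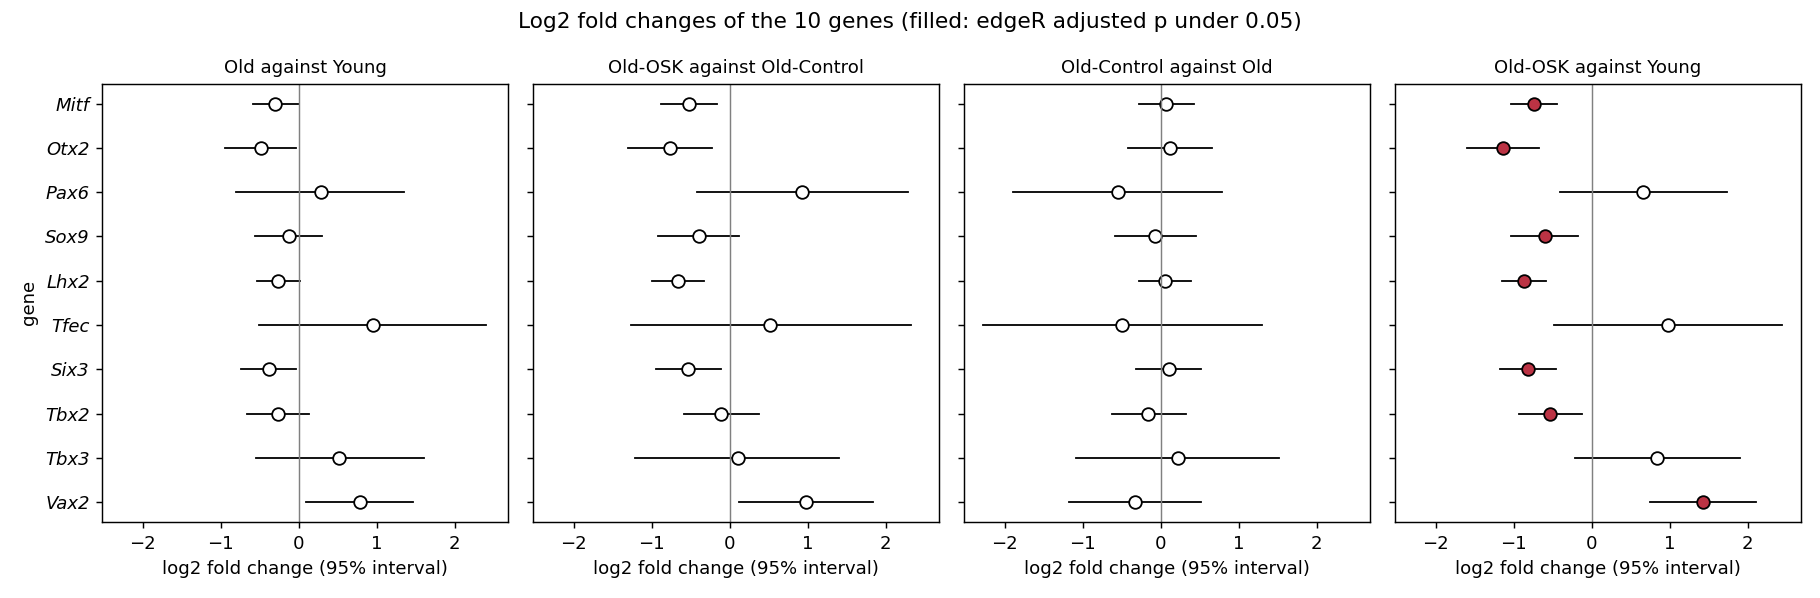
Log2 fold change of the 10 genes (rows) in 4 comparisons (panels), with 95% intervals as bars and filled points where edgeR's adjusted p is under 0.05. Filled points occur only in Old-OSK against Young (Mitf, Otx2, Sox9, Lhx2, Six3 and Tbx2 below 0 and Vax2 above), and Pax6, Tfec and Tbx3 have the widest intervals.

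In Old-OSK against Young most genes in the visual cycle and RPE list and in the pigment list were lower. Of the 15 visual cycle and RPE genes 12 were lower and 2 higher (median -1.4, beside 0.06 over all genes). Of all genes, 21.4% were called lower and 25.1% higher. Rdh10, a retinol dehydrogenase gene, had -1.81 (adjusted p = 0.000734) and Trpm3, a cation channel gene, -1.21 (adjusted p = 0.000902). Rpe65 fell by 1.62 (adjusted p = 0.000377) and Rrh by 1.57 (adjusted p = 0.00035). Of the 16 genes of the pigment list 10 were lower and 0 higher (median -0.73), led by Tyr, which fell by 1.27 (adjusted p = 8.78e-06), and Slc24a5, which fell by 1.11 (adjusted p = 0.00011). Cdk2 fell by 0.99 (adjusted p = 0.000412) and Oca2, a melanosome chloride channel gene, by 1.16 (adjusted p = 0.000632). Tyr, Slc24a5 and Cdk2 were called in Old against Young as well, at -0.86, -0.56 and -0.95.

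The neural retina list had 11 of 18 tested genes higher and 0 lower in Old-OSK against Young, beside 25.1% and 21.4% of all genes. Beside Sox2 (4.54, adjusted p = 9.43e-07), the lowest p belonged to Tfap2a (2.73, adjusted p = 0.000663) and Tfap2b (1.93, adjusted p = 0.00781), factors of amacrine cells, and to Isl1 (2.48, adjusted p = 0.0106), a factor of bipolar and ganglion cells. The summed amacrine and ganglion markers, which hold both Tfap2 genes, were 267.2 to 395.4 CPM in Old-OSK and 373.3 to 524 CPM in Young, and rod markers were 2900 to 16310 and 155.8 to 3073 CPM. Of the 20 cofactors, 8 were lower and 2 higher, beside 21.4% and 25.1% of all genes. Ppargc1a (-0.88, adjusted p = 5.9e-05), Rarb (-0.84, adjusted p = 0.000487), Axin2 (-0.78, adjusted p = 0.000514) and Yap1, the Hippo pathway coactivator (-0.69, adjusted p = 0.00264), had the lowest p. In the list of relatives 3 of 13 tested genes were lower and 2 higher, beside the same shares of all genes. The lowest p among them belonged to Lhx9 (3.42, adjusted p = 0.00212), Tbx5 (-0.86, adjusted p = 0.00453), Sox10 (-1.07, adjusted p = 0.0104) and Vax1, the relative of Vax2 (-2.11, adjusted p = 0.012). Vax1 and Vax2 thus moved in opposite directions, although Vax1 averaged only 0.1295 CPM in Old-OSK and 0.6096 CPM in Young. Against Old, Rarb (-0.73, adjusted p = 0.0463) was the only cofactor called and Sox2 (4.81, adjusted p = 7.37e-05) the only neural retina factor, and 0 genes were called in the other 3 lists. There the lowest p belonged to Rrh (-1.03, adjusted p = 0.107) and Trpm3 (-0.91, adjusted p = 0.111), Slc24a5 (-0.55, adjusted p = 0.151) and Oca2 (-0.68, adjusted p = 0.173), and Tbx5 (-0.61, adjusted p = 0.227) and Sox10 (-0.8, adjusted p = 0.264).

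**Figure D5:**
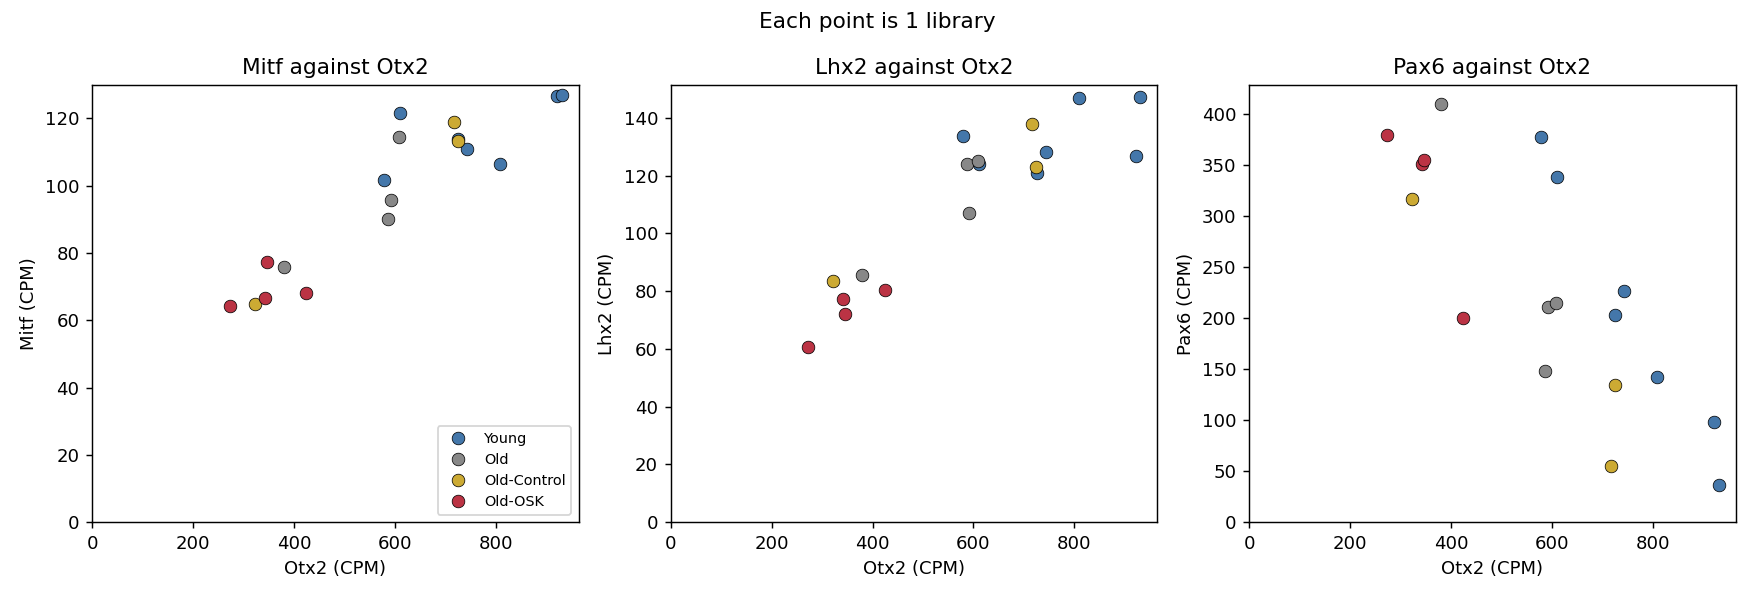
Mitf (left), Lhx2 (middle) and Pax6 (right), each on the y axis in CPM, against Otx2 on the x axis in CPM, each point 1 library coloured by group. Mitf and Lhx2 fall into a low set of 6 libraries (Otx2 at 272 to 425 CPM) and a high set of 12 (579 to 931 CPM), and Pax6 declines with Otx2 within the Young libraries.

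Within the 7 Young libraries, Otx2 and Pax6 ran in opposite order. Young replicates 7 and 5 had the most Otx2 (931 and 922 CPM) and the least Pax6 (36.8 and 97.6 CPM), and replicates 3 and 2 had the least Otx2 (579 and 611 CPM) and the most Pax6 (377 and 338 CPM). Pearson's r was -0.912 (two-sided exact permutation p = 0.00198, adjusted p = 0.0893 over the 45 pairs of the 10 genes) and Spearman's rho -0.964 (exact permutation p = 0.00278, adjusted p = 0.125). Without the 2 libraries farthest from the median of Otx2, r was -0.983 over 5 libraries. Pax6 and Tbx2 had r = 0.889 (exact permutation p = 0.00655, adjusted p = 0.147; rho = 0.857, p = 0.0238, adjusted p = 0.214), and r = 0.851 without the 2 libraries farthest from the median of Pax6. No pair of the 45 passed the correction. The libraries with and without M (3 and 4) are too few for a value of their own, and the opposite order of Otx2 and Pax6 held within each set.

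Other lists moved with Pax6 among the Young libraries. The melanocyte markers summed to 3563 and 4159 CPM in replicates 7 and 5, and to 7002 and 5721 CPM in replicates 3 and 2. The pigment list summed to 8008 and 8754 CPM in the first pair and 12240 and 10580 CPM in the second, and the RPE markers went the other way, with 90520 and 93380 CPM against 57760 and 56390 CPM. The bipolar markers, which share Trpm1 with the pigment list, summed to 496.8 and 528.2 CPM in replicates 7 and 5. In replicates 3 and 2 they summed to 1030 and 916.5 CPM. Trpm1 alone averaged 714.9 CPM in Young, beside a median of 776.7 CPM for the whole bipolar list. The amacrine and ganglion markers, from cells that also make Pax6, summed to 524 and 466.2 CPM in the first pair and 397.3 and 373.3 CPM in the second. The part of melanocytes, bipolar cells, amacrine and ganglion cells or the RPE in the Pax6 level was not tested.

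Over all 18 libraries the genes most like each factor were found among 10232 genes by Pearson's r of log2 CPM. These values are descriptions, since the 18 points share the difference between the low set of 6 libraries and the high set of 12. Closest to Otx2 were Ppp5c (r = 0.988) and Mxd4 (0.986), closest to Mitf Cyp4f17 (0.977), and closest to Lhx2 Stat5b (0.979) and Kif13a (0.978). For Six3 they were Dnajb12 (0.973) and Ppp5c (0.972), and for Sox9 AU040320 (0.965) and Slc12a4 (0.962). Pax6 was closest to Otx1 (0.98), the relative of Otx2, and Tnfrsf21 (0.971), and Tbx2 to Pde5a (0.922) and Rassf8 (0.916). An r of at least 0.9 was reached by 897 genes with Otx2 (8.767%), 535 with Mitf, 534 with Lhx2, 516 with Six3, 248 with Sox9, 100 with Pax6 and 2 with Tbx2. Otx1 itself averaged 51.82 ± 16.58 CPM with OSK, beside 22.52 ± 15.23 CPM with the control vector (1.2, SE 0.67, adjusted p = 0.273), beside 30.08 ± 19.08 CPM in Young and 36.79 ± 16.76 CPM in Old.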

How the data were processed

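RNA of 18 mouse RPE libraries was extracted with TRIzol and made into full-length cDNA libraries (SMART-Seq v4 and Nextera XT), per the labels' protocols. The deposited values are raw counts per gene, and the submitters' processing notes name STAR 2.7.1a, featureCounts 1.6.2 and the builds GRCm38/mm10 and GRCh38/hg38 with no role given. Strand and multi-mapping settings are not given in the sources used here.

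Genes were kept by edgeR's filterByExpr (minimum count 10, minimum total 15), which left 15944. Counts were scaled by TMM factors and tested with edgeR 4.0.16 (R 4.3.3) by quasi-likelihood F tests with 4 group means over all 18 libraries and Benjamini-Hochberg adjustment over all genes tested. A gene was called at an adjusted p under 0.05, and standard errors are the log2 fold change divided by the square root of F. DESeq2 1.42.0, other scalings and filters, covariates, a replicate block and leaving out libraries were alternatives. The fits were tested on simulated counts. Young-only correlations used exact permutation tests.

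The 10 genes, the pathway lists and the marker lists were chosen with earlier results of these data known. From each list up to 4 called genes with the lowest p are named, otherwise the 2 with the lowest p. For those of the 10 whose log2 CPM averaged 3 or more, the 2 genes with the highest r are named. One gene that this rule names is not reported here. Replicate numbers of Old-OSK and Old-Control were checked for pairing: deviations of same-numbered libraries correlated at 0.103, 0.421 and 0.339. A like value occurred for replicate 3 of Old-Control and Old (0.359). The labels name no shared animal or batch, and the numbers in the library names differ. Old-Control replicates 2 and 3 had 5493 and 5013 counts on Y-linked genes, and Old-OSK replicates 2 and 3 had 15 and 4. Pairing was therefore not established. The fit behind the reported values has no block, and the blocked fit is an alternative. No 2 libraries of a group agreed within sampling noise (chi-square per gene at least 21.22).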

Additional observations from a re-analysis of the deposited data

Results flagged for a closer look

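For the 10 genes, 30 sets of library values (each gene in each group of 4 or more libraries) were examined for a library far from the rest of its group, by the gap to its nearest neighbour as a share of the group's range (Dixon's 95% critical value). This gave 4 cases. Chance gives about 1 in 20 among independent sets, and 3 of the 4 come from a single library, so the sets are not independent. In Old, Otx2 was 380 CPM in replicate 4 and 587 to 608 CPM in the other 3. The other 3 cases all concern Old-OSK replicate 4, which has the highest rod marker sum of its group (16310 CPM) and is the only Old-OSK library with M in its name. Pax6 was 200 CPM there and 350 to 379 CPM in replicates 1 to 3. Tbx2 was 54.6 CPM against 40.6 to 42.4 CPM, and Vax2 was 19.1 CPM against 5.15 to 7.12 CPM. The part of the rod signal in these values was not tested.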

How the results depend on the processing

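Of the log2 fold changes of the 10 genes under the alternatives, 1026 kept their direction and their side of the threshold, 36 passed it newly, 21 no longer passed it and 96 changed sign. The sign changes were in values not called, other than for Sox9 and Vax2 in Old-OSK against Young. The number called in Old against Young became 1 when Old-Control replicate 2 and Old-OSK replicate 4 were left out. For Old-OSK against Old-Control it was 2 with DESeq2 (11.6% of all genes) and 0 to 5 when each library was left out. It was 5 without Old replicate 4 and Old-Control replicate 2 (23.3% of all genes). Without Old-Control replicate 2 and Old-OSK replicate 4 it was also 5 (24.2%). For Old-OSK against Young it was 0, 3 and 4 with immune, RPE, and amacrine and ganglion markers as covariates (0%, 9.87% and 23.6% of all genes). For Old-OSK against Old it was 1 with DESeq2 (2.8% of all genes) and 0 to 1 when each library was left out (1 without Old replicate 4, beside 6.57%). Without the same pairs of libraries it was 5 and 3 (13.9% and 4.78%), and among libraries without M 1 (1.69%). The cause was not tested. The replicate block changed no call of the 10 in any comparison, while the genes called in all went from 1524 to 0 in Old against Young, from 134 to 1 in Old-OSK against Old, and from 116 to 461 in Old-OSK against Old-Control. The block fits held only the compared groups and their shared replicate numbers, so the block and the libraries left out cannot be told apart. The check of deviations established pairing in none of the comparisons. Over all alternatives the genes called ran from 0 to 2704 for Old against Young and from 0 to 2 for Old-Control against Old. With Old-OSK they ran from 2 to 3856 against Old-Control, from 0 to 8126 against Young and from 1 to 2228 against Old. With a mean of at least 50 counts required, 8 of the 10 were tested, without Tfec and Tbx3, whose counts limit what can be seen.

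In Old against Young the values that changed sign were, with amacrine and ganglion markers Mitf 0.01, Pax6 -0.13, Sox9 0.17 and Tbx3 -0.74, with immune markers Otx2 0.01, Pax6 -1.21, Sox9 0.49, Tfec -1.41 and Vax2 -1.22, with the replicate block Pax6 -0.13 and Sox9 0.01. Others were, with RPE markers Pax6 -0.1 and Sox9 0.04, without Old replicate 4 and Old-Control replicate 2 Pax6 -0.07 and Sox9 0.05, among libraries without M Pax6 -0.11 and Sox9 0.04. Others were, with rod markers Sox9 0.02 and Tbx3 -0.12. Leaving out single libraries, the ranges were -0.08 to 0.5 for Pax6 and -0.23 to 0.03 for Sox9. In Old-OSK against Old-Control the values that changed sign were, with RPE markers Sox9 0.18, Tfec -0.5 and Tbx3 -0.19, with M as a covariate Tbx2 0, without Old replicate 4 and Old-Control replicate 2 Tbx2 0.19. Others were, without Old-Control replicate 2 and Old-OSK replicate 4 Tbx2 0.06, among libraries without M Tbx2 0.57, with the replicate block Tbx3 -0.07. Others were, with amacrine and ganglion markers Tbx3 -0.27. Leaving out single libraries, the ranges were -0.39 to 0.19 for Tbx2 and -0.36 to 1.19 for Tbx3. In Old-Control against Old the values that changed sign were, with the replicate block Mitf -0.07, Otx2 -0.12, Lhx2 -0.09, Six3 -0.06 and Tbx3 -0.3, with amacrine and ganglion markers Mitf -0.07, Otx2 -0.05 and Lhx2 -0.01, without Old replicate 4 and Old-Control replicate 2 Sox9 0.04, Tbx3 -1.01 and Vax2 0. Others were, without Old-Control replicate 2 and Old-OSK replicate 4 Sox9 0.2 and Tbx3 -0.89, among libraries without M Sox9 0.22 and Tbx3 -0.36, with M as a covariate Six3 -0.04 and Tbx3 -0.3. Others were, with rod markers Tbx3 -0.24, with RPE markers Tbx3 -0.08. Leaving out single libraries, the ranges were -0.08 to 0.31 for Mitf, -0.06 to 0.41 for Otx2, -0.25 to 0.2 for Sox9, -0.1 to 0.24 for Lhx2, -0.02 to 0.26 for Six3, -0.48 to 0.12 for Tbx2 and -0.89 to 0.68 for Tbx3. In Old-OSK against Young the values that changed sign were, with immune markers Pax6 -1.18, Sox9 0.15, Tfec -2.05 and Vax2 -1.01, with RPE markers Pax6 -0.84, Sox9 0.14 and Tfec -0.63, with rod markers Tbx3 -0.17. Others were, with amacrine and ganglion markers Tbx3 -0.76. In Old-OSK against Old the values that changed sign were, with RPE markers Otx2 0, Pax6 -0.74, Sox9 0.1, Tfec -1.21 and Tbx3 -0.27, with rod markers Tfec -0.03 and Tbx3 -0.05, with immune markers Tfec -0.64. Others were, with amacrine and ganglion markers Tfec -0.09 and Tbx3 -0.02, without Old-Control replicate 2 and Old-OSK replicate 4 Tfec -0.01, Tbx3 -0.07 and Vax2 0, among libraries without M Tbx3 -0.01. Leaving out single libraries, the ranges were -0.24 to 0.36 for Tfec and -0.07 to 0.59 for Tbx3.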
